A study of Mus musculus with 6 samples.

Results

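The immunity-related GTPases (IRGs) are a family of interferon-gamma-induced GTP-binding proteins, and 7 of their mouse genes were followed here: Igtp, Irgm1, Irgm2, Tgtp1, Tgtp2, Ifi47 and Iigp1. The genes were chosen by their lower counts in the Cre+ samples of this comparison together with their place in the family. They were taken by symbol from a table of 57132 gene rows, and all 7 were found and passed the filter on low counts with 19927 genes in all. The count table came from isolated glomeruli, the filtering units of the kidney, of 3 Cre+/Setdb2fl/fl samples and 3 Cre-/Setdb2fl/fl samples. Both genotypes carried floxed alleles of Setdb2, which encodes a SET-domain protein of the histone H3 lysine 9 methyltransferase group, and all 6 samples were labelled as diabetic kidney disease (DKD). The design text places the question in podocytes, the cells that wrap the capillaries of the glomerulus. The sources used here give neither the Cre driver nor the diabetes model nor the age. Nor do the labels tie the replicates to separate animals, so p-values measure only the spread between these samples, which may be technical.

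IRG proteins act in cell-autonomous immunity: interferon-gamma, secreted mainly by T and natural killer cells, signals through its receptor and the kinases JAK1 and JAK2 to transcription factors, IRF1 among them, that switch the IRG genes on. The products of Irgm1, Irgm2 and Igtp (also named Irgm3) form the GMS group, named for an unusual residue in the nucleotide-binding loop. They sit on the membranes of the cell's own organelles and hold back the other members. The products of Tgtp1 and Tgtp2 (Irgb6), Ifi47 (Irgd) and Iigp1 (Irga6) form the GKS group, whose members load onto vacuoles that hold intracellular pathogens. Many cell types express these genes when interferon-gamma reaches them, macrophages and endothelial cells included.

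Of the 7 genes, 6 lie on chromosome 11 and had a promoter window of 300 bases (250 before and 50 after the annotated start) in RefSeq on build GRCm38.p6. The windows were searched on both strands for the core of the interferon-stimulated response element (ISRE), which is GAAA, any 2 bases and GAAA again, and for the gamma-activated sequence (GAS) core TTCNNNGAA. The first is the kind of sequence that interferon regulatory factors bind, and the second is known from promoters that interferon-gamma switches on. In 5 of the 6 windows an ISRE core lay upstream of the start, and the 60 bases around it are shown because the cores recur, most closely in Igtp and Irgm2, among genes that lay low together in the Cre+/Setdb2fl/fl samples. They read 5′ to 3′ on the strand of the gene, with the matched cores in capitals.
Igtp, chr11:58199490-58199549, plus strand: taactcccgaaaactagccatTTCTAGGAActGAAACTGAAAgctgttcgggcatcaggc
Irgm2, chr11:58214881-58214940, plus strand: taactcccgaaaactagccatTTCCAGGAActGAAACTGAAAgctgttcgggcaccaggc
Tgtp1, chr11:48992296-48992355, minus strand: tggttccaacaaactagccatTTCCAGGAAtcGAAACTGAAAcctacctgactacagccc
Tgtp2, chr11:49064255-49064314, minus strand: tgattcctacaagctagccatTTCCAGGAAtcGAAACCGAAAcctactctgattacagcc
Irgm1, chr11:48871417-48871476, minus strand: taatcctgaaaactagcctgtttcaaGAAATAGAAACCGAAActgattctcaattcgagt

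In Igtp, Irgm2, Tgtp1 and Tgtp2 a GAS core stood upstream of the ISRE core with 2 bases between them, while Irgm1 held 2 overlapping ISRE cores and no GAS core. The Ifi47 window held neither. An ISRE core was present in 3.44% of 32851 mouse promoter windows of the same length and a GAS core in 8.30%. A GAS core followed by any 2 bases and an ISRE core, a spacing taken from these stretches after they had been read, was found in the windows of 5 of 27025 genes: the 4 just named and Gm12185, another gene of the family. These genes are copies of each other, so their shared letters are not independent of each other.

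**Figure D1:**
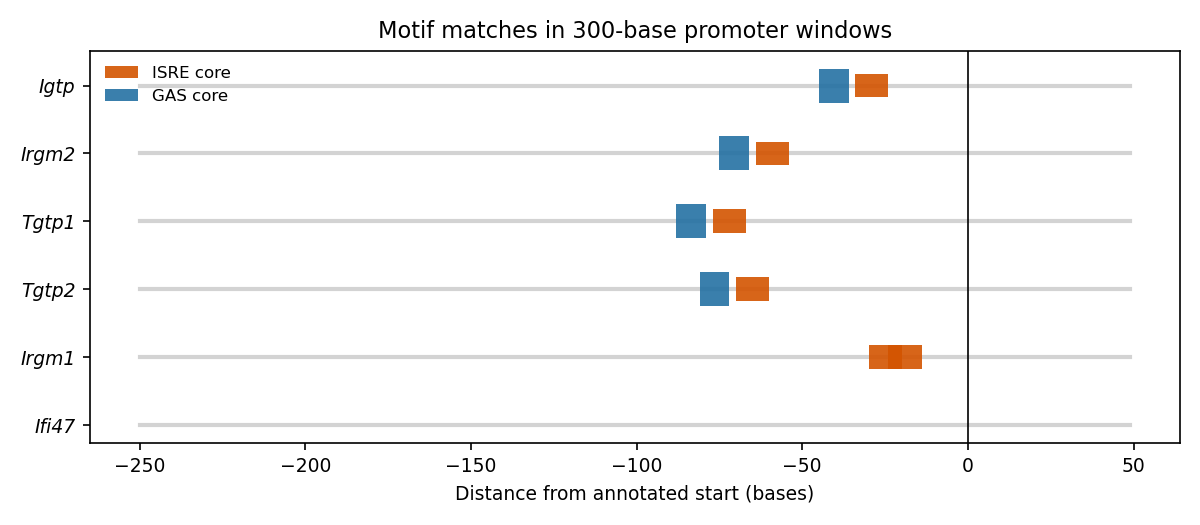
Positions of ISRE and GAS core matches (coloured blocks) in the promoter windows of 6 IRG genes, in bases from the annotated start; grey lines are the 300-base windows. The GAS and ISRE cores stand side by side in Igtp, Irgm2, Tgtp1 and Tgtp2, and Ifi47 has no match.

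Libraries held 53571438 to 58807042 counts. Setdb2 had 427, 444 and 391 counts in Cre+/Setdb2fl/fl replicates 1, 2 and 3, against 591, 492 and 370 in Cre-/Setdb2fl/fl replicates 1, 2 and 3, so the gene-level count does not check the genotype labels. All 8 podocyte markers were detected, and their summed level was 688 to 782 CPM (counts scaled to a common library size with TMM factors) in Cre+/Setdb2fl/fl and 497 to 575 CPM in Cre-/Setdb2fl/fl libraries. The 8 proximal tubule markers summed to 12579 to 13733 CPM in Cre+/Setdb2fl/fl and 8423 to 9792 CPM in Cre-/Setdb2fl/fl libraries, so the isolates also held abundant tubule RNA. Cre+/Setdb2fl/fl replicate 2 stood apart: it had 24 counts of Xist, which coats the inactive X chromosome of female cells, against 36474 to 47632 in the other 5 libraries, and the 4 Y-linked genes examined had 0 counts in all 6. The values of the IRG genes without this library are given below.

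All 7 IRG genes lay lower in every Cre+/Setdb2fl/fl library than in any Cre-/Setdb2fl/fl library. Summed over the 7 genes the level was 219, 144 and 208 CPM in Cre+/Setdb2fl/fl replicates 1, 2 and 3, against 658, 460 and 609 CPM in the Cre-/Setdb2fl/fl replicates. The mean was 190.3 ± 40.7 CPM in Cre+/Setdb2fl/fl and 576 ± 103 CPM in Cre-/Setdb2fl/fl libraries (SD, n = 3 each). The genes were proposed with results of this same comparison in view, so their differences are given as a description, with fitted log2 fold changes and standard errors (SE) but without a test. In edgeR's quasi-likelihood fit over all genes, all 7 fell below the adjusted p of 0.05 with lower levels in Cre+/Setdb2fl/fl, where 3.82% of all genes tested did so and 7.55% passed in either direction. The share is no reading on the 7, since the comparison chose them. For 14.5% of all genes tested the Cre+/Setdb2fl/fl libraries lay wholly below the others. The median log2 fold change was -1.60 over the 7 genes and -0.00090 over all genes. In bulk tissue, fewer cells of a type that expresses these genes and less RNA per cell cannot be told apart.

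**Figure D2:**
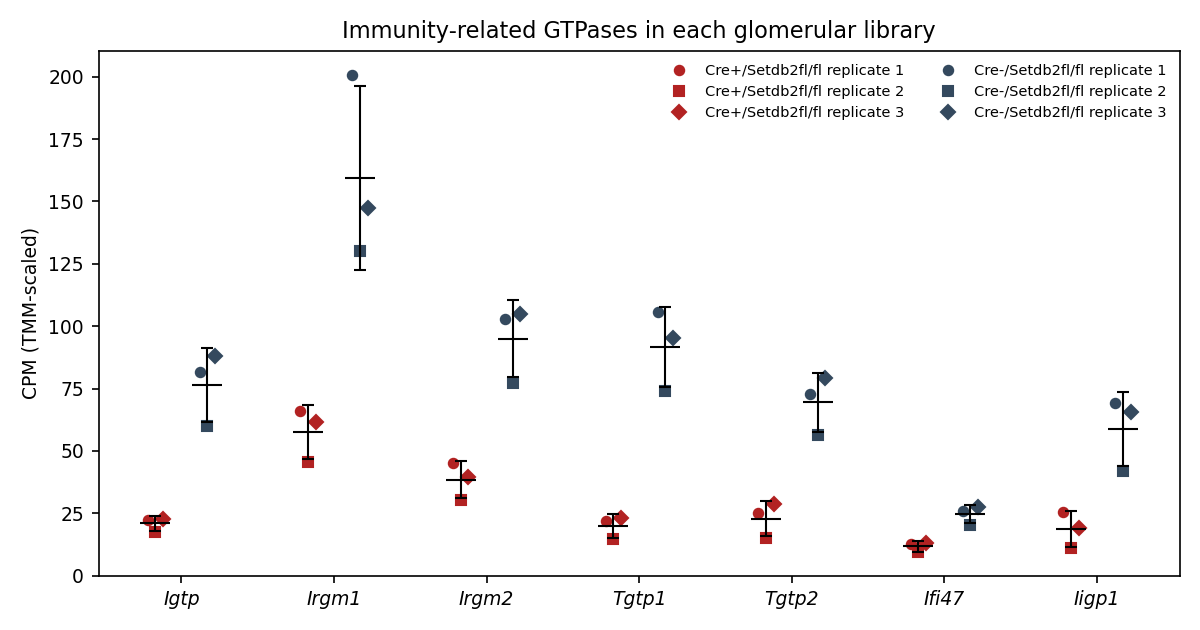
Level of each IRG gene in CPM (vertical axis, linear) in the 6 glomerular libraries; Cre+/Setdb2fl/fl libraries are red, Cre-/Setdb2fl/fl libraries dark blue, and black lines with bars give the mean and SD of 3. For every gene the 3 red points lie below the 3 blue ones, and replicate 2 (square) is the lowest of its genotype.

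Among the GMS genes, Igtp, whose product associates with the endoplasmic reticulum and with lipid droplets, stood at 22.5, 17.5 and 22.8 CPM in Cre+/Setdb2fl/fl replicates 1, 2 and 3, against 81.4, 60.0 and 88.1 CPM in the Cre-/Setdb2fl/fl replicates. The highest Cre+/Setdb2fl/fl library was thus far under the lowest Cre-/Setdb2fl/fl one, and the log2 fold change was -1.87 (SE 0.16), or 0.274 times the Cre-/Setdb2fl/fl level. Irgm1, a regulator needed in mice for resistance to mycobacteria, had 66.2, 45.4 and 61.4 CPM in Cre+/Setdb2fl/fl, against 201, 130 and 147 CPM in Cre-/Setdb2fl/fl libraries. Its log2 fold change was -1.47 (SE 0.20), with Cre-/Setdb2fl/fl replicate 1 well above the other 2 of its genotype. Irgm2, whose product is found at the Golgi, had 45.3, 30.5 and 39.7 CPM in Cre+/Setdb2fl/fl, against 103, 77.2 and 105 CPM in Cre-/Setdb2fl/fl libraries, a log2 fold change of -1.30 (SE 0.17). Igtp and Irgm2 lie side by side and share 162 exon bases on the same strand, but under 1% of the 150-base stretches of their transcripts (0.739% and 0.437%) are identical between them.

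Among the GKS genes, Tgtp1 and Tgtp2 are near-identical copies of the T-cell-specific GTPase, which damages vacuole membranes around parasites such as Toxoplasma. Tgtp1 had 21.9, 14.6 and 23.2 CPM in Cre+/Setdb2fl/fl, against 106, 74.2 and 95.4 CPM in Cre-/Setdb2fl/fl libraries. Its log2 fold change of -2.21 (SE 0.21) was the lowest fitted value of the 7 genes. Tgtp2 had 24.9, 15.2 and 28.5 CPM in Cre+/Setdb2fl/fl, against 72.7, 56.3 and 79.3 CPM in Cre-/Setdb2fl/fl libraries, a log2 fold change of -1.60 (SE 0.25). The split between the copies moved with genotype: there were 0.880, 0.955 and 0.813 Tgtp1 counts per Tgtp2 count in Cre+/Setdb2fl/fl replicates 1, 2 and 3, against 1.45, 1.32 and 1.20 in the Cre-/Setdb2fl/fl replicates, without overlap. Of the distinct stretches of 150 bases, the read length, in the GENCODE transcripts of Tgtp1, 64.9% are identical in a transcript of another gene (62.5% in Tgtp2, others in Gm12185), and for Tgtp2 68.4% are identical in Tgtp1. The sources used here do not say how reads that match both were counted, so the separate values of the copies are uncertain. Counted together, the pair had 2500, 1697 and 2775 counts in Cre+/Setdb2fl/fl and 10827, 7297 and 9832 counts in Cre-/Setdb2fl/fl libraries, a log2 fold change of -1.91.

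Ifi47 was the IRG gene with the smallest difference, at 12.8, 9.34 and 13.2 CPM in Cre+/Setdb2fl/fl, against 26.0, 20.5 and 27.4 CPM in Cre-/Setdb2fl/fl libraries. The groups still did not overlap, and the log2 fold change was -1.07 (SE 0.16), or 0.478 times the Cre-/Setdb2fl/fl level. It shares 111 exon bases on the same strand with the olfactory receptor gene Olfr56, which had 45, 18 and 33 counts in Cre+/Setdb2fl/fl and 231, 133 and 80 counts in Cre-/Setdb2fl/fl libraries. Iigp1, the member on chromosome 18, whose product is the best studied GKS protein and assembles on the Toxoplasma vacuole, had 25.4, 11.2 and 19.2 CPM in Cre+/Setdb2fl/fl, against 69.0, 41.9 and 65.8 CPM in Cre-/Setdb2fl/fl libraries. Its log2 fold change of -1.66 carried the largest error of the 7 (SE 0.34), with replicate 2 clearly under the other 2 libraries in both genotypes. No 150-base stretch of Irgm1, Ifi47 or Iigp1 transcripts is identical in another gene.

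Levels of different genes can be set side by side only per length. In CPM per kilobase of exon (GENCODE M21), Cre+/Setdb2fl/fl libraries had means of 10.4 ± 2.03 for Irgm2, 10.4 ± 1.46 for Igtp, 9.92 ± 1.87 for Irgm1, 7.80 ± 2.34 for Tgtp2, 6.21 ± 1.46 for Tgtp1, 4.76 ± 0.857 for Ifi47 and 3.20 ± 1.22 for Iigp1 (SD, n = 3). In Cre-/Setdb2fl/fl libraries Igtp led with 37.8 ± 7.27, followed by Tgtp1 at 28.6 ± 4.99, Irgm1 at 27.5 ± 6.33, Irgm2 at 25.8 ± 4.21, Tgtp2 at 23.6 ± 4.02, Iigp1 at 10.1 ± 2.54 and Ifi47 at 9.96 ± 1.48. Neighbours in either order differed by less than their SDs added together, except that Tgtp2 stood well above Iigp1 in Cre-/Setdb2fl/fl libraries. Tgtp1 stood next below Igtp in Cre-/Setdb2fl/fl libraries but below all 3 GMS genes and Tgtp2 in Cre+/Setdb2fl/fl ones. Without scaling by length, the summed CPM of the 4 GKS genes was divided by that of the 3 GMS genes in each library. The ratio was 0.635, 0.539 and 0.679 in Cre+/Setdb2fl/fl replicates 1, 2 and 3, against 0.709, 0.722 and 0.787 in the Cre-/Setdb2fl/fl replicates. It can be compared between libraries but does not rank the levels of the GKS and GMS groups.

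The 7 genes also varied together inside each genotype. Replicate 2 was the lowest of its genotype for all 7 genes in Cre+/Setdb2fl/fl and for all 7 in Cre-/Setdb2fl/fl, while replicates 1 and 3 shared the highest places, with 3 and 4 genes each in both genotypes. Pearson's r of log2 CPM over the 6 libraries, which includes the genotype difference, ran from 0.962 (Igtp with Iigp1) to 0.997 (Tgtp2 with Ifi47) over the pairs. Without Cre+/Setdb2fl/fl replicate 2, the library that stood apart, the median log2 fold change of the 7 genes was -1.38. All 7 kept their side of the adjusted p of 0.05 in that fit. Since the 7 were chosen from these same libraries, how many stay past the threshold describes the fits and is no support. Leaving out each library in turn moved the median between -1.73 and -1.38 and left 5 to 7 genes past the threshold: Iigp1 missed it without Cre-/Setdb2fl/fl replicate 1 (log2 fold change -1.53) or 3 (-1.57) and without Cre+/Setdb2fl/fl replicate 3 (-1.69), and Tgtp2 without Cre-/Setdb2fl/fl replicate 1 (-1.57) or Cre+/Setdb2fl/fl replicate 1 (-1.67).

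The genes of the interferon-gamma pathway outside the family were counted in lists by role, with edgeR's quasi-likelihood test and Benjamini-Hochberg adjustment over all 19927 genes; 3.82% of these were lower and 3.73% higher in Cre+/Setdb2fl/fl at an adjusted p of 0.05. The ligand gene Ifng had 0, 0 and 3 counts in Cre+/Setdb2fl/fl and 7, 3 and 0 counts in Cre-/Setdb2fl/fl libraries, too few to compare at this depth. Of the 4 receptor and kinase genes 0 passed at that threshold in edgeR's test, 2 had an unadjusted p under 0.05, and 1 passed with DESeq2. Ifngr2, a receptor chain, stood at -0.37 on the log2 scale (SE 0.10, adjusted p = 0.0629, and 0.0271 with DESeq2). The other chain, Ifngr1, had 38.7, 44.1 and 40.4 CPM in Cre+/Setdb2fl/fl and 63.4, 44.3 and 46.4 CPM in Cre-/Setdb2fl/fl libraries (log2 fold change -0.32, SE 0.14, adjusted p = 0.197). Jak1 stood at -0.15 (SE 0.089, adjusted p = 0.370) and Jak2 at -0.0052 (SE 0.10, adjusted p = 0.984).

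Of 9 transcription factor genes downstream of the receptor, 4 fell, none rose and 5 did not pass, with a median log2 fold change of -0.69. Nlrc5, the activator of MHC class I genes, fell to 10.8 ± 2.37 CPM in Cre+/Setdb2fl/fl, against 25.3 ± 4.04 CPM in Cre-/Setdb2fl/fl libraries (SD, n = 3; log2 fold change -1.24, SE 0.18, adjusted p = 0.00668, edgeR). Irf1, itself induced by interferon-gamma, had 24.5, 27.5 and 26.3 CPM in Cre+/Setdb2fl/fl, against 64.8, 38.9 and 49.7 CPM in Cre-/Setdb2fl/fl libraries, without overlap; the log2 fold change was -0.97 with an SE of 0.17 and an adjusted p of 0.0148. Stat2, a transducer of type I interferon signalling, stood at -0.78 (SE 0.17, adjusted p = 0.0341). The call of Irf1 was lost when any single Cre+/Setdb2fl/fl library was left out (adjusted p up to 0.0726), and that of Stat2 without Cre+/Setdb2fl/fl replicate 2 or 3 or Cre-/Setdb2fl/fl replicate 1 or 3 (up to 0.130). The list count was 2 without Cre+/Setdb2fl/fl replicate 2 and 2 without replicate 3.

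Target genes outside the GTPases fell in most cases. Of 21 tested, 13 were lower and 1 was higher in Cre+/Setdb2fl/fl, and 7 did not pass, with a median log2 fold change of -0.75. Cxcl10, a chemokine for activated T cells, fell by 2.36 on the log2 scale (SE 0.24, adjusted p = 0.00168, edgeR), more than any of the 7 IRG genes in size of the fitted value. Cd274, which encodes the inhibitory ligand PD-L1, fell by 1.31 (SE 0.16, adjusted p = 0.00323), the peptide transporter gene Tap2 fell by 0.75 (SE 0.087, adjusted p = 0.00214) and its partner Tapbp fell by 0.57 (SE 0.076, adjusted p = 0.00400). The single rise, named after its value was seen, was the nitric oxide synthase gene Nos2, with 3.98, 2.79 and 3.75 CPM in Cre+/Setdb2fl/fl and 2.03, 1.34 and 1.17 CPM in Cre-/Setdb2fl/fl libraries (log2 fold change 1.21, SE 0.29, adjusted p = 0.0393). Its call was lost in 5 of the 6 fits that left out a library, and held without Cre-/Setdb2fl/fl replicate 1. Of 6 feedback genes, Socs3, an inhibitor of cytokine receptor signalling, fell by 1.51 (SE 0.36, adjusted p = 0.0481) and 5 did not pass. The call of Socs3 was lost when any single Cre+/Setdb2fl/fl library was left out (adjusted p up to 0.155) and without Cre-/Setdb2fl/fl replicate 2. Socs1, the feedback inhibitor of interferon-gamma signalling, had 1.37, 1.53 and 1.73 CPM in Cre+/Setdb2fl/fl and 1.76, 1.34 and 1.97 CPM in Cre-/Setdb2fl/fl libraries, which overlap (log2 fold change -0.13, SE 0.28, adjusted p = 0.821).

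**Figure D3:**
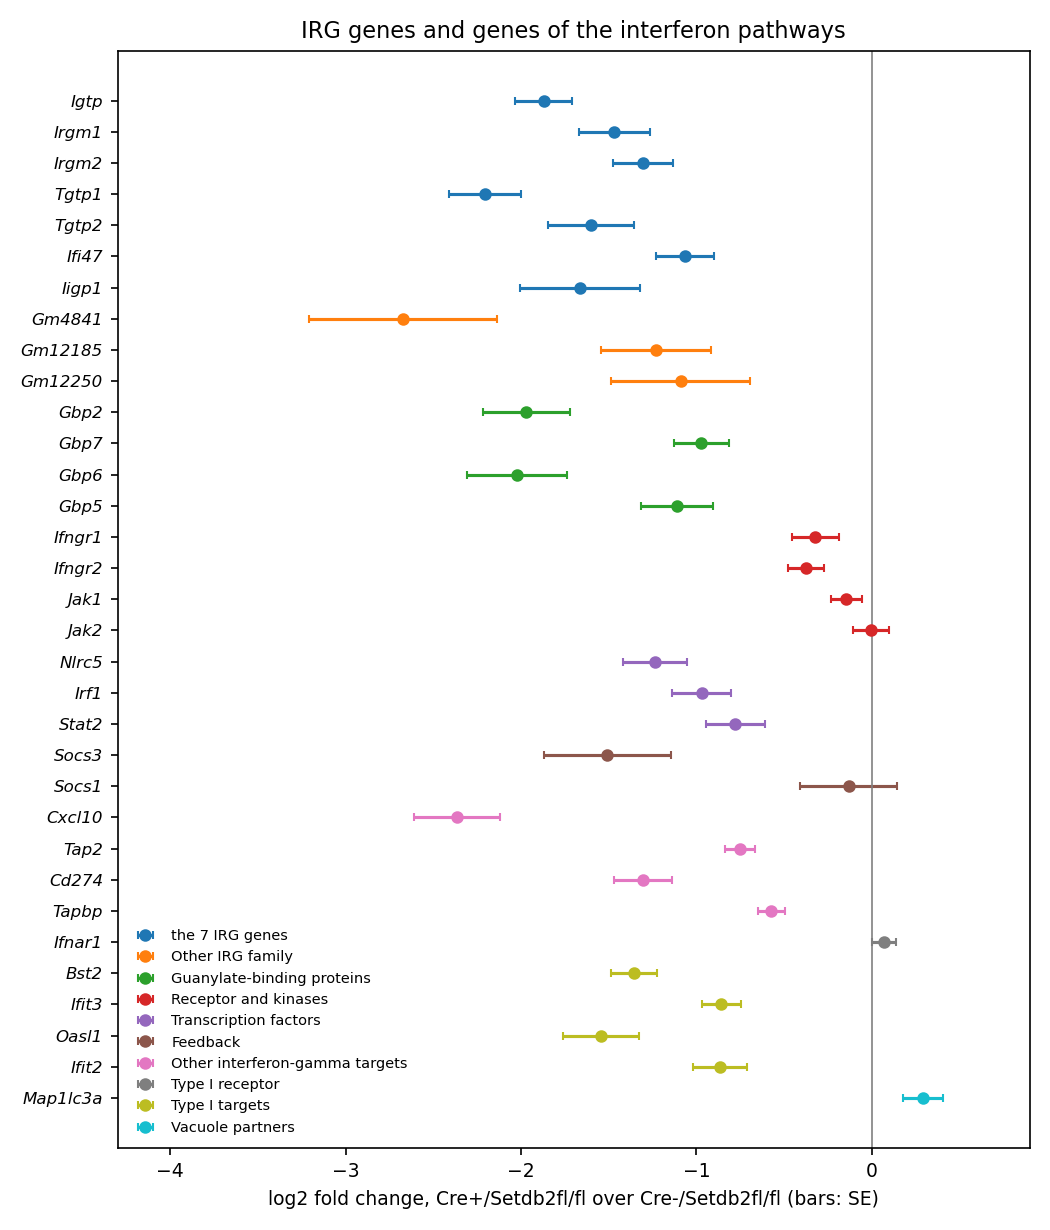
Fitted log2 fold changes (horizontal axis, Cre+/Setdb2fl/fl over Cre-/Setdb2fl/fl, bars are SE) of the 7 IRG genes and of named genes of the interferon pathways, coloured by role. The IRG genes, chosen for their lower counts in this comparison, span -2.21 to -1.07. All tested receptor and kinase genes are drawn and lie between -0.37 and -0.0052. From the other lists the genes drawn were mostly picked by smallest p. Nos2 and Rsad2, with log2 fold changes of 1.21 and 0.33, are not drawn.

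The 7 were chosen for their lower counts in this comparison, so smaller differences in the rest of the family are no result. Of 9 other genes of the IRG family tested, 8 had a log2 fold change below 0, as did 50.1% of all genes tested. At the adjusted p of 0.05, 2 fell, none rose and 7 did not pass, with a median log2 fold change of -0.42. Gm4841 fell to 0.188, 0.246 and 0.447 CPM in Cre+/Setdb2fl/fl, against 2.62, 0.805 and 2.22 CPM in Cre-/Setdb2fl/fl libraries (log2 fold change -2.67, SE 0.54, adjusted p = 0.0206, edgeR). Gm12185, which shares 223 exon bases and transcript stretches with Tgtp1, fell by 1.23 (SE 0.31, adjusted p = 0.0488). Gm12250, the gene of IRGB10, a GKS protein that attacks bacterial membranes, stood at 2.68, 1.12 and 1.04 CPM in Cre+/Setdb2fl/fl and 3.62, 2.54 and 4.16 CPM in Cre-/Setdb2fl/fl libraries, which overlap (log2 fold change -1.09, SE 0.40, adjusted p = 0.141). Both calls rested on single libraries: the list count was 0 without Cre-/Setdb2fl/fl replicate 1 or Cre+/Setdb2fl/fl replicate 2 or 3, 1 without Cre-/Setdb2fl/fl replicate 2 or 3, and 3 without Cre+/Setdb2fl/fl replicate 1. Irgq, a family member without GTPase activity that serves as an autophagy receptor, had 39.3, 41.0 and 45.5 CPM in Cre+/Setdb2fl/fl and 37.5, 35.6 and 41.9 CPM in Cre-/Setdb2fl/fl libraries (adjusted p = 0.457).

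Of 14 other interferon-inducible GTPase genes, guanylate-binding proteins for the most part, 6 fell, none rose and 8 did not pass, with a median log2 fold change of -1.005. Gbp6 fell by 2.03 (SE 0.29, adjusted p = 0.0121, edgeR), Gbp2 by 1.97 (SE 0.25, adjusted p = 0.00695), Gbp5 by 1.11 (SE 0.21, adjusted p = 0.0154) and Gbp7 by 0.97 (SE 0.16, adjusted p = 0.0102). Without Cre-/Setdb2fl/fl replicate 1 the count was 3. The call of Gbp6 was lost without that library (adjusted p = 0.0520) or Cre+/Setdb2fl/fl replicate 1 (0.0569), and that of Gbp5 without Cre+/Setdb2fl/fl replicate 3 (0.0575).

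Of 14 genes known first as targets of type I interferon, 7 fell, none rose and 7 did not pass, with a median log2 fold change of -0.95. Among those that did not pass, Rsad2, which encodes the antiviral enzyme viperin and is named here after its values were seen, had 58.2, 50.1 and 51.0 CPM in Cre+/Setdb2fl/fl, against 43.4, 37.5 and 46.3 CPM in Cre-/Setdb2fl/fl libraries, without overlap (log2 fold change 0.33, SE 0.10, adjusted p = 0.0880). Bst2, which tethers virus particles to cells, fell by 1.36 (SE 0.13, adjusted p = 0.000999, edgeR), Oasl1 by 1.54 (SE 0.21, adjusted p = 0.00470), Ifit3 by 0.86 (SE 0.11, adjusted p = 0.00370) and Ifit2 by 0.87 (SE 0.15, adjusted p = 0.0146). The call of Ifit2 was lost without Cre+/Setdb2fl/fl replicate 2 or 3 (adjusted p up to 0.0726). Without Cre+/Setdb2fl/fl replicate 1 the count of lower targets was 12, and it was 4 without Cre+/Setdb2fl/fl replicate 2 or any single Cre-/Setdb2fl/fl library and 3 without Cre+/Setdb2fl/fl replicate 3. Among the type I ligand and receptor genes 0 of the 3 tested passed with edgeR or DESeq2, and 0 had an unadjusted p under 0.05. Ifnar1, a receptor chain, stood at 0.068 on the log2 scale (SE 0.068, adjusted p = 0.610).

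The autophagy and ubiquitin genes that take part in loading IRG and guanylate-binding proteins onto vacuoles did not pass in edgeR's test. Of 13 tested, none was lower and none higher at the threshold (1 higher without Cre-/Setdb2fl/fl replicate 3), 2 had an unadjusted p under 0.05, 0 passed with DESeq2, and the median log2 fold change was -0.042. Map1lc3a, an ATG8 family gene with the smallest p of this list, had 41.3, 52.4 and 50.9 CPM in Cre+/Setdb2fl/fl and 34.7, 41.7 and 41.6 CPM in Cre-/Setdb2fl/fl libraries, which overlap (log2 fold change 0.29, SE 0.11, adjusted p = 0.163). The other gene with an unadjusted p under 0.05, Atg12, stood at -0.20 (SE 0.081, adjusted p = 0.190, edgeR). Of the 13, 9 lay below 0 and 4 were lower in Cre+/Setdb2fl/fl without overlap, where 14.5% of all genes tested were.

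Markers of cell types that can express IRG genes or secrete interferon-gamma moved in different directions. Summed over 13 macrophage markers, the level was 201, 202 and 189 CPM in Cre+/Setdb2fl/fl replicates 1, 2 and 3, against 392, 202 and 311 CPM in the Cre-/Setdb2fl/fl replicates. This sum leans on Csf1r, the receptor gene of a macrophage growth factor, which had 87.0, 101 and 85.0 CPM in Cre+/Setdb2fl/fl and 80.8, 62.8 and 97.8 CPM in Cre-/Setdb2fl/fl libraries. In summed CPM over all 13 the groups thus overlapped. Csf1r was the only marker above 0 (log2 fold change 0.18) and was set apart after its values were seen. Over the other 12 markers the sum was 114, 102 and 104 CPM in Cre+/Setdb2fl/fl, against 312, 139 and 214 CPM in Cre-/Setdb2fl/fl libraries. In summed CPM, that lack of overlap depends on leaving out the marker that went the other way. The mean log2 CPM of the tested markers, Csf1r included, did not overlap. It was 3.00, 2.84 and 2.91 in Cre+/Setdb2fl/fl replicates 1, 2 and 3, against 4.45, 3.16 and 3.78 in the Cre-/Setdb2fl/fl replicates. With or without Csf1r, Cre-/Setdb2fl/fl replicate 2 was the lowest of its genotype, as it was for the IRG genes. Of the 13 markers 2 fell (C1qc and Cd14), none rose and 11 did not pass; the median log2 fold change was -0.93, 12 of the 13 were below 0, and 6 were lower in Cre+/Setdb2fl/fl without overlap. The count was 0 when any single Cre+/Setdb2fl/fl library was left out and 7 without Cre-/Setdb2fl/fl replicate 2. No macrophage marker was at 0 in any library. The 13 T and natural killer cell markers summed to 11.6, 16.7 and 20.2 CPM in Cre+/Setdb2fl/fl and 14.9, 7.89 and 18.0 CPM in Cre-/Setdb2fl/fl libraries, which overlap. Of these markers 0 of the 11 tested passed in edgeR's test and 1 had an unadjusted p under 0.05. With DESeq2 or without Cre-/Setdb2fl/fl replicate 3, 1 was higher. The marker with the unadjusted p under 0.05 was Cd8a, named after its values were seen. It had 4.46, 4.95 and 4.98 CPM in Cre+/Setdb2fl/fl, against 1.55, 1.04 and 3.06 CPM in Cre-/Setdb2fl/fl libraries, without overlap. Its log2 fold change was 1.35 (SE 0.37, adjusted p = 0.0609, edgeR), while 4 of the 11 markers lay below 0. Of 4 B cell markers 0 passed with edgeR, 1 had an unadjusted p under 0.05, and 1 was higher with DESeq2. The natural killer cell gene Ncr1 was at 0 in 3 of the 6 libraries. Of 8 glomerular endothelial markers 7 rose, none fell and 1 did not pass, with sums of 779, 862 and 859 CPM in Cre+/Setdb2fl/fl and 532, 588 and 590 CPM in Cre-/Setdb2fl/fl libraries. Of 8 podocyte markers 2 rose and 6 did not pass (1 rose without Cre+/Setdb2fl/fl replicate 2 or 3), and of 5 mesangial markers 2 rose and 3 did not pass. Among tubule markers, 5 of 8 of the proximal tubule and 4 of 6 from the loop of Henle to the collecting duct rose and none passed as lower. Without Cre+/Setdb2fl/fl replicate 3 the proximal tubule count was 2, and the other count was 1 or 2 when any single library was left out. The tubule lists were not uniform, with 1 marker below 0 in each. The proximal tubule marker Slc22a6, named after its values were seen, was lower without overlap (log2 fold change -0.71, SE 0.18, adjusted p = 0.0553, edgeR). The part of these cell types in the lower IRG levels was not tested.

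**Figure D4:**
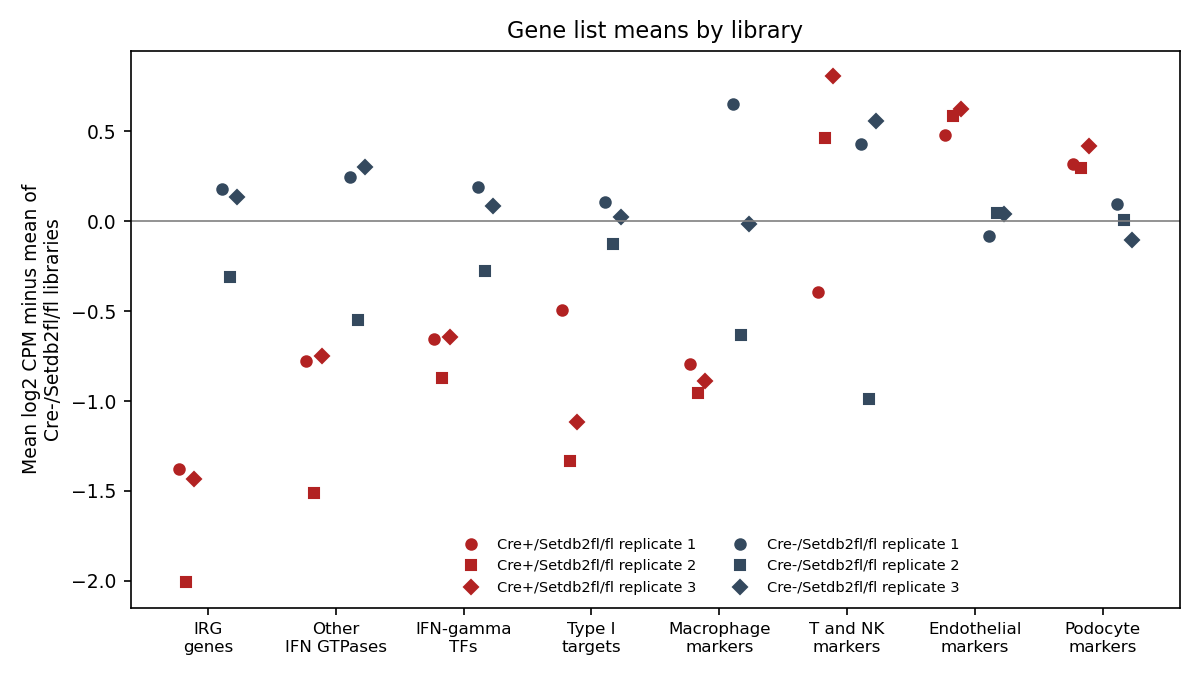
Mean log2 CPM of the tested genes of 8 lists in each library, as the difference from the mean of the Cre-/Setdb2fl/fl libraries (vertical axis); Cre+/Setdb2fl/fl libraries are red, Cre-/Setdb2fl/fl libraries dark blue, and the symbol gives the replicate. Every list except that of T and natural killer cell markers separates the genotypes. The macrophage list brings Cre-/Setdb2fl/fl replicate 2 close to the red points, and the endothelial and podocyte lists point the other way.

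On chromosome 11 the IRG genes form clusters, from Irgm1 through Tgtp1 and Tgtp2 to Ifi47 and from Gm12250 through Igtp to Irgm2, and most genes around them lay near 0 on the log2 scale. The 5 nearest tested protein-coding genes on each side of each cluster, 20 in all, had log2 fold changes from -0.40 to 1.04 with a median of 0.039, and 0 of the 20 passed with edgeR or DESeq2, with 2 at an unadjusted p under 0.05. Inside the first cluster, Psme2b, annotated between IRG genes, stood at -0.28 on the log2 scale (SE 0.15, adjusted p = 0.308), and Olfr56, which overlaps Ifi47, had -2.10 (SE 0.47, adjusted p = 0.0312). Among genes with an ISRE core in the promoter window, without the 7, 7.88% of 495 tested were lower in Cre+/Setdb2fl/fl with a median log2 fold change of -0.071, beside 4.40% of all 12840 tested genes with a window and a median of -0.0090.

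**Figure D5:**
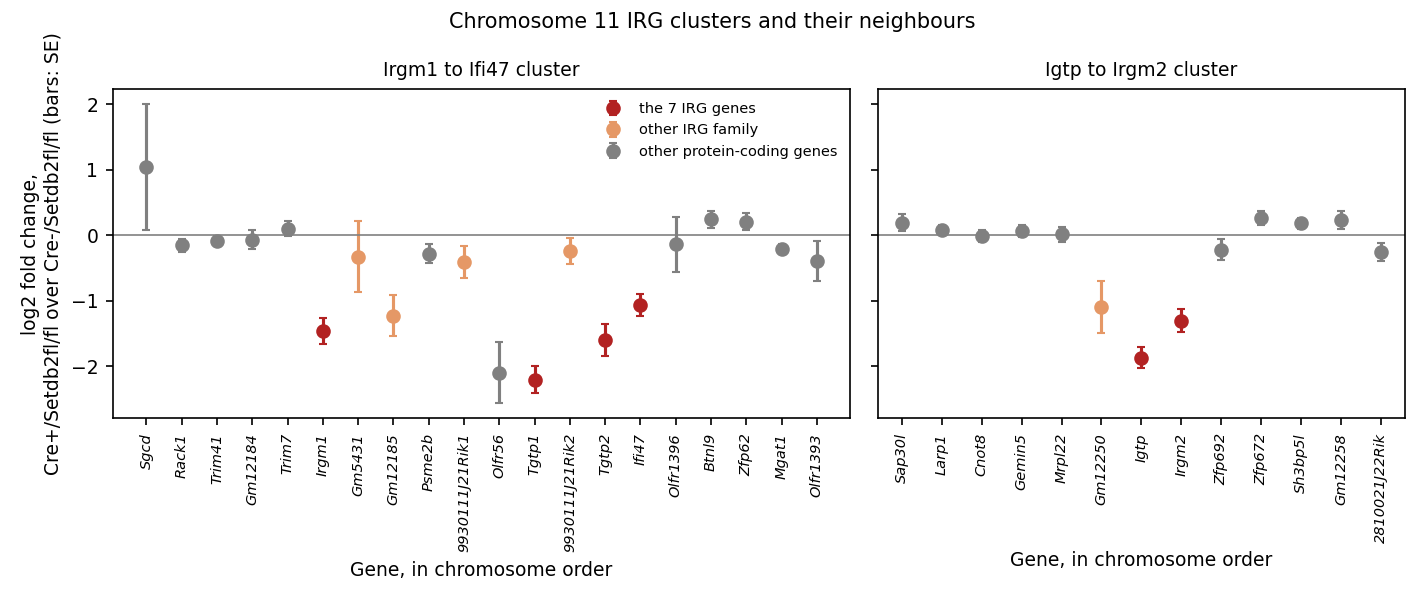
Fitted log2 fold changes (vertical axis, Cre+/Setdb2fl/fl over Cre-/Setdb2fl/fl, bars are SE) of the tested protein-coding genes at the chromosome 11 IRG clusters, in chromosome order. IRG genes of the 7 (red) lie between -2.21 and -1.07, and the flanking genes (grey, outside the clusters) between -0.40 and 1.04.

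Among the 8 genes whose pattern over the libraries was most like the mean of the 7 were Kctd1, Psmb10, Map3k20, Tap1, Gbp7, Gbp5 and Lzic. Their Pearson r of log2 CPM with that mean over 6 libraries ran from 0.994 to 0.997, among 12776 genes whose average log2 CPM was 1 or more, and the genotype difference is part of these values. After each genotype's mean was taken out, r over the same 6 libraries ran from 0.941 (Map3k20) to 0.997 (Gbp5) among the 8 genes. Of these, the immunoproteasome subunit gene Psmb10 had a log2 fold change of -0.66 (SE 0.10) and the peptide transporter gene Tap1 one of -1.44 (SE 0.21), both on the scale on which the IRG genes lay between -2.21 and -1.07. Kctd1, which led the list, stood at -0.60 (SE 0.093).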

How the data were processed

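The authors deposited raw counts as whole numbers, by Ensembl gene, in 1 table with a column for each of the 6 samples. Per the labels' protocols, polyadenylated RNA was made into strand-marked libraries and sequenced as read pairs. Tools in the submitters' processing notes are HISAT2, StringTie, fastp and edgeR, with build GRCm39 and no version or role for any. The sources used here do not give the annotation release, the strand setting or how multiply matching reads were counted. Symbols came from a table that matched 51880 of 57132 rows. GENCODE M21 (GRCm38) served for exon lengths, shared transcript stretches, overlaps and gene order, and RefSeq on GRCm38.p6 for promoters; both are another build than the counts. Of 8 list names without a row of their own, 6 were older names of listed genes and 2 had no entry.

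Counts were analysed as deposited in R 4.3.3 with edgeR 4.0.16: filterByExpr, TMM factors (0.979 to 1.03), and the quasi-likelihood F test with robust=TRUE, adjusted by Benjamini-Hochberg over 19927 genes. SE is the size of the log2 fold change over the root of F. CPM uses TMM-scaled library sizes, and log2 CPM a prior count of 2. Intervals and counts cover counting error and the spread between 3 samples, with a biological coefficient of variation of 21.5%. No pair of libraries agreed within sampling noise (chi-square per degree of freedom 20.6 or more). Alternatives were RLE and upper-quartile factors, other filters, robust=FALSE, DESeq2 1.42.0, a replicate block, Tgtp1 and Tgtp2 summed, CPM by total counts, and each library left out. The test was also run on counts simulated with the spread of this fit, and no result of that run is used here. The 7 genes and the gene lists were chosen with earlier results of these data known. Named genes are the 7, all receptor and kinase genes, and up to 4 of each list by smallest p among those past 0.05 (otherwise the smallest p). Irf1, Socs1, Nlrc5 and Gm12250 and the 8 genes of highest correlation were also named, with 1 gene taken by these rules left out of the text. Nos2, Rsad2, Csf1r, Irgq, C1qc, Cd14, Cd3d, Cd8a, Olfr56, Psme2b, Atg12 and Slc22a6 were added after their values were seen.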

Additional observations from a re-analysis of the deposited data

How the results depend on the processing

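Every IRG gene kept a negative log2 fold change in all 92 values tried, between -2.34 and -0.92. All 7 stayed past the adjusted p of 0.05 with every full-sample alternative except without a filter on low counts. There Iigp1 missed it (6 of 7). As the 7 were chosen from this comparison, these values are a description and no support. With RLE factors, upper-quartile factors or summed Tgtp copies no IRG value moved by more than the spread between replicates. Of the genes past the threshold over all genes, 1505 in all, DESeq2 gave 2545, and leaving out a library gave 462 to 2039. The same-numbered libraries deviated together only weakly (r 0.0173 to 0.0551), but each Cre+/Setdb2fl/fl library correlated best with its own number. Whether the replicate numbers pair the samples cannot be told from these values. The replicate block gave 1541 genes, 7 IRG genes and a median of -1.63. With the block, 4 macrophage markers and 1 loop, distal tubule and collecting duct marker were lower and 1 T and natural killer cell marker was higher, and Socs3 and Gm12185 lost their calls (adjusted p = 0.0970 and 0.0644).

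Counts of lower genes with DESeq2 were 4 for other IRG genes, 1 for receptor and kinases, 2 for feedback, 8 for macrophage and 1 for proximal tubule markers, and of higher genes 1 for T and natural killer cell, 1 for B cell and 4 for podocyte markers. Requiring 1 CPM in 3 libraries gave 1 other IRG gene, 2 feedback genes and 1 proximal tubule marker lower; no filter gave 1 other IRG gene and 1 macrophage marker; robust=FALSE gave 1 other IRG gene, 4 macrophage markers and 1 proximal tubule marker. Leaving out a library gave 0 to 3 lower other IRG genes, 3 to 6 other GTPases, 2 to 5 transcription factors, 0 to 1 feedback genes, 3 to 12 type I targets, 0 to 7 macrophage and 0 to 1 proximal tubule markers. Among higher genes it gave 0 to 1 interferon-gamma targets, 0 to 1 vacuole partners, 0 to 1 T and natural killer cell, 1 to 2 podocyte, 2 to 6 proximal tubule and 1 to 2 loop, distal tubule and collecting duct markers. Jak2, near 0 throughout, turned to 0.0030 with the block, and ran from -0.10 to 0.097 when a library was left out (0.097 without Cre-/Setdb2fl/fl replicate 1 and 0.020 without Cre+/Setdb2fl/fl replicate 2). The cause of these moves was not tested. Of the 8 genes most like the IRG mean, 7 stayed without the Tgtp copies. Genes under about 1 CPM, such as the T cell marker Cd3d, and Gm4841 in Cre+/Setdb2fl/fl libraries, rest on few counts.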
